A study of Mus musculus with 4 samples.

Results

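The nuclear genes of respiratory complexes II to V were examined in hippocampal RNA from C57BL/6 mice aged 6 months. Members were all genes whose deposited symbol named a succinate dehydrogenase subunit (Sdha to Sdhd), a ubiquinol-cytochrome c reductase gene (Uqcr or Cyc1), cytochrome c (Cycs), a cytochrome c oxidase gene of the Cox4 to Cox8 series, or an ATP synthase gene (Atp5). The rule found 48 of the 18492 genes listed, and the same 48 had reads in every library: 4 for complex II, 9 for complex III, cytochrome c itself, 17 for complex IV and 17 for complex V. Of these, 45 encode structural subunits or cytochrome c, counting tissue isoforms. Cox7a2l (a supercomplex assembly factor), Atp5s and Atp5sl (factor B and a gene named after it) do not, and are kept because the symbol rule takes them. There are 4 libraries, 1 per genotype: wild-type mice (WT), mice without Ogg1 (Ogg1-/-, Ogg1 KO), mice without Mutyh (Mutyh-/-, Mutyh KO) and mice without either (DKO). Ogg1 and Mutyh are DNA glycosylases of the repair pathway for oxidised guanine, the first acting on the damaged base and the second on adenine misinserted opposite it, and both also act in mitochondria. How many animals gave each RNA and which sex they had were not stated, and the labels give no detail of the deleted alleles.

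The respiratory chain of the inner mitochondrial membrane passes electrons from fuel to oxygen and stores the energy as a proton gradient. Complex II oxidises succinate and is also an enzyme of the citric acid cycle, complex III passes electrons from ubiquinol to cytochrome c, complex IV reduces oxygen, and complex V makes ATP from the gradient. Complex II is encoded wholly in the nucleus, whereas complexes III, IV and V each combine nuclear subunits with subunits encoded in mitochondrial DNA, whose transcripts were not analysed here. Several complex IV subunits exist as a common form and a form used in muscle, testis or other tissues, and subunit c of complex V is made from a set of related genes. Neurons depend on this pathway for most of their ATP.

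Unique reads in genes with a symbol numbered 18114217 in WT and 17020296, 17142316 and 18198733 in Ogg1 KO, Mutyh KO and DKO. The targeted gene Ogg1 had 94 reads in WT and 130, 81 and 103 in Ogg1 KO, Mutyh KO and DKO, so its total does not follow the labels, although its covered length did (86.7% and 81.5% in WT and Mutyh KO, 47.2% and 46.4% in Ogg1 KO and DKO). Mutyh had 39, 35, 15 and 20 reads in the same order. The knockout names below are therefore those of the library labels, and every direction for the libraries labelled Ogg1 KO and DKO rests on them. All 14 markers of hippocampal neurons were present in each library, at 3375 to 3630 RPKM in sum (RPKM, a read count scaled by gene length and library total). Camk2a and Snap25 alone gave 1135 and 1001 RPKM of that sum in WT. In Ogg1 KO, Mutyh KO and DKO 3, 3 and 1 of the 14 were at least 20% below WT. Over all genes averaging at least 1 RPKM, 3.57%, 1.92% and 2.55% were. None of the 14 was at least 25% above WT. Markers of the choroid plexus, an epithelium next to the hippocampus, summed to 272 RPKM in WT and 2987, 2948 and 1506 in Ogg1 KO, Mutyh KO and DKO, with all 18 markers at least 25% higher in each knockout library. In bulk tissue, fewer cells of a type and less RNA per cell cannot be told apart. With 1 library per genotype there is no replicate check, so no p-value is given and each difference is between libraries. Intervals are 95% intervals that cover counting error only.

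Together the members took 96921 reads in WT and 92745, 88929 and 95395 in Ogg1 KO, Mutyh KO and DKO, which is 0.535%, 0.545%, 0.519% and 0.524% of the reads. Relative to WT the summed share was 1.02-fold in the library labelled Ogg1 KO (1.01 to 1.03), 0.970-fold in Mutyh KO (0.961 to 0.978) and 0.980-fold in DKO (0.971 to 0.988). The share was thus highest in Ogg1 KO and lowest in Mutyh KO, within a few percent of WT. A gene was compared where its mean over the libraries was at least 1 RPKM, which 47 members and 13186 genes in all met. Cox7b2 did not, with 1, 6, 4 and 2 reads in WT, Ogg1 KO, Mutyh KO and DKO. With 1 RPKM added to each value, a member's highest library was less than 25% above its lowest for 35 of the 47, as for 76.2% of all genes compared, and less than 1.1 times the lowest for 15 of them against 22.4%. Among genes averaging at least 20 RPKM, 33 of 40 members and 87.6% of all genes lay within 25%.

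**Figure D1:**
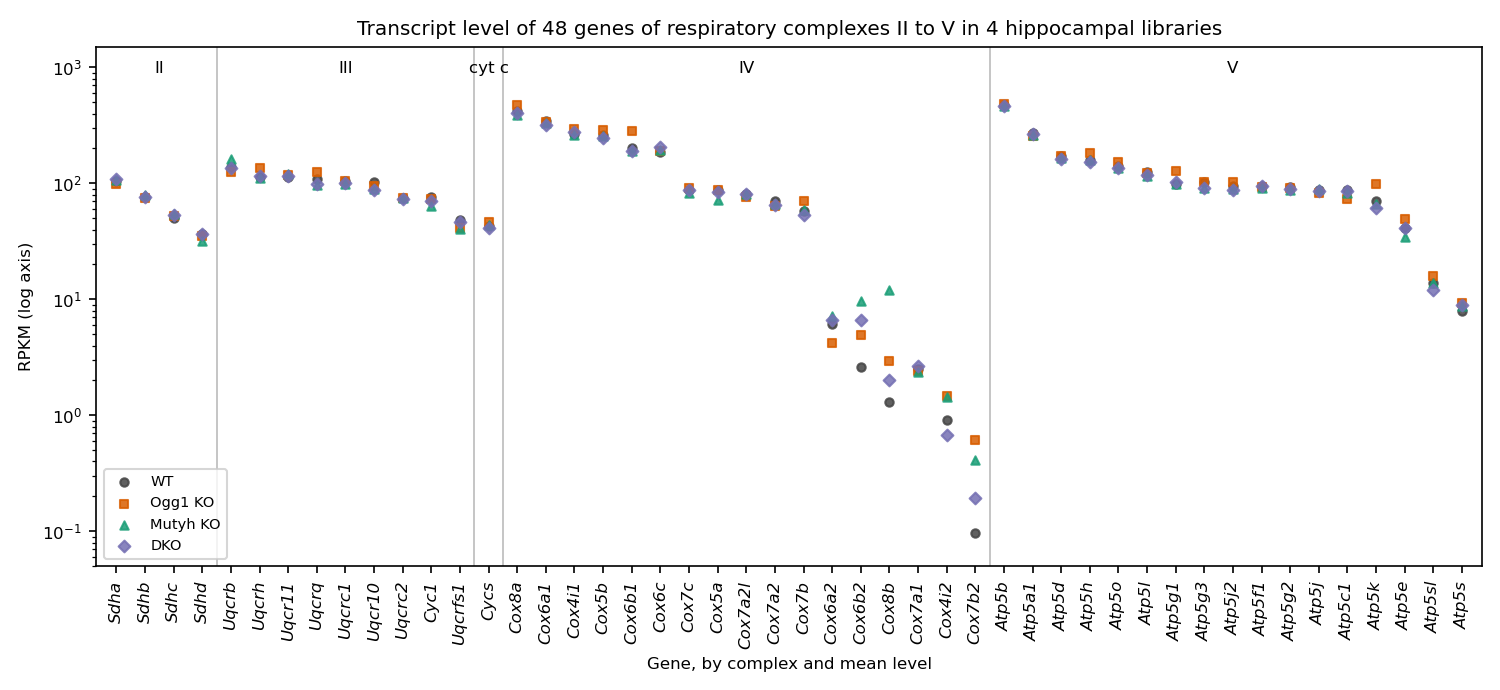
Transcript level (RPKM, log axis) of the 48 genes, ordered by complex and mean level, with 1 point per library. Complexes II and III spread over narrow ranges, complexes IV and V over wide ones, and the libraries separate mainly among the low-level complex IV genes, such as Cox8b between 1.30 and 12.03 RPKM.

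Complex II had the lowest summed level of the complexes, at 268 RPKM in WT and 261, 271 and 276 in Ogg1 KO, Mutyh KO and DKO. Sdha, the flavoprotein that oxidises succinate, had 5399, 4793, 5206 and 5722 reads in that order, or 104, 98.5, 106 and 110 RPKM. Sdhb, the iron-sulfur subunit, stood at 75.1 to 78.6 RPKM in all 4 libraries. The membrane anchors Sdhc and Sdhd were lower, at 50.4 to 54.1 and 32.2 to 36.8 RPKM. The order Sdha, Sdhb, Sdhc, Sdhd held in each library, and no complex II gene was 25% above or 20% below WT in any knockout library. The widest difference was that of Sdhd in Mutyh KO, 710 reads against 857, 0.875-fold (0.791 to 0.968).

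Complex III genes lay close together, the highest at 2.90 to 3.996 times the lowest within a library, and summed to 879 RPKM in WT and 893, 856 and 846 in Ogg1 KO, Mutyh KO and DKO. The small subunit Uqcrb was highest by its mean, with 1274 reads in WT and 1080, 1396 and 1244 in Ogg1 KO, Mutyh KO and DKO (140, 126, 162 and 136 RPKM), and Ogg1 KO and Mutyh KO lay on opposite sides of WT. Uqcrfs1, the Rieske iron-sulfur protein, was lowest in every library, with 1147, 914, 912 and 1116 reads or 48.2, 40.9, 40.5 and 46.7 RPKM. It was lower than WT in both single knockout libraries, at 0.848-fold (0.777 to 0.926) in Ogg1 KO and 0.840-fold (0.769 to 0.917) in Mutyh KO, which is within the limit of 20% below. Cyc1, the cytochrome c1 that hands electrons to cytochrome c, had 1657, 1481, 1310 and 1525 reads and was at 0.835-fold (0.776 to 0.899) in Mutyh KO. The core proteins Uqcrc1 and Uqcrc2 (97.9 to 104 and 73.9 to 75.5 RPKM) and the small subunit Uqcr11 (112 to 120 RPKM) varied little. No complex III gene was 25% above or 20% below WT. Cycs, the mobile carrier between complexes III and IV, stood at 42.9, 46.3, 44.0 and 41.3 RPKM, and its coverage of 74.6% to 83.2% was below that of most members.

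Complex IV held genes from abundant to barely detected. They summed to 2076 RPKM in WT and 2268, 2015 and 2032 in Ogg1 KO, Mutyh KO and DKO. Cox8a, the common form of subunit 8, was highest, with 4145 reads in WT and 4367, 3607 and 4008 in Ogg1 KO, Mutyh KO and DKO (420, 471, 386 and 404 RPKM). Cox6a1, the common form of subunit 6a, stood at 317 to 346 RPKM, Cox4i1, the common form of subunit 4, at 262 to 293, and the zinc-binding subunit Cox5b at 246 to 289. Cox7c had a covered length of 59.5% to 71.5% and Cox7b, the common form of subunit 7b, 61.0% to 68.0%, so part of their deposited length had no unique read behind levels of 82.0 to 90.5 and 53.0 to 70.0 RPKM. Of the others, Cox6c stood at 186 to 207 RPKM, Cox5a at 71.9 to 87.3 and the assembly factor Cox7a2l at 75.7 to 81.5.

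For each isoform pair of complex IV the common gene gave 95.2% or more of the summed RPKM in every library. Cox7a1, the muscle form of subunit 7a, had 18, 16, 16 and 19 reads (2.53, 2.39, 2.37 and 2.66 RPKM) beside 971, 817, 853 and 900 for the common form Cox7a2 (71.1, 63.7, 66.0 and 65.6 RPKM). It took 3.43% to 3.89% of the pair, much the same share in each library. Cox6a2, the muscle form of subunit 6a, took 1.23% to 2.09% of its pair. Cox4i2, the second form of subunit 4, took 0.244% to 0.547%, with 12, 18, 18 and 9 reads beside 3259, 3391, 3056 and 3436 for Cox4i1. Cox7b2 took 0.166% to 0.872%, and at so few reads these shares carry no order. Cox8b, the muscle form of subunit 8, took 0.308% of its pair in WT and 0.615%, 3.02% and 0.495% in Ogg1 KO, Mutyh KO and DKO. Cox6b2, the testis form of subunit 6b, took 1.28%, 1.71%, 4.84% and 3.33%. Cox8c, the third subunit 8 gene, was not listed in any library and was not analysed here.

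**Figure D2:**
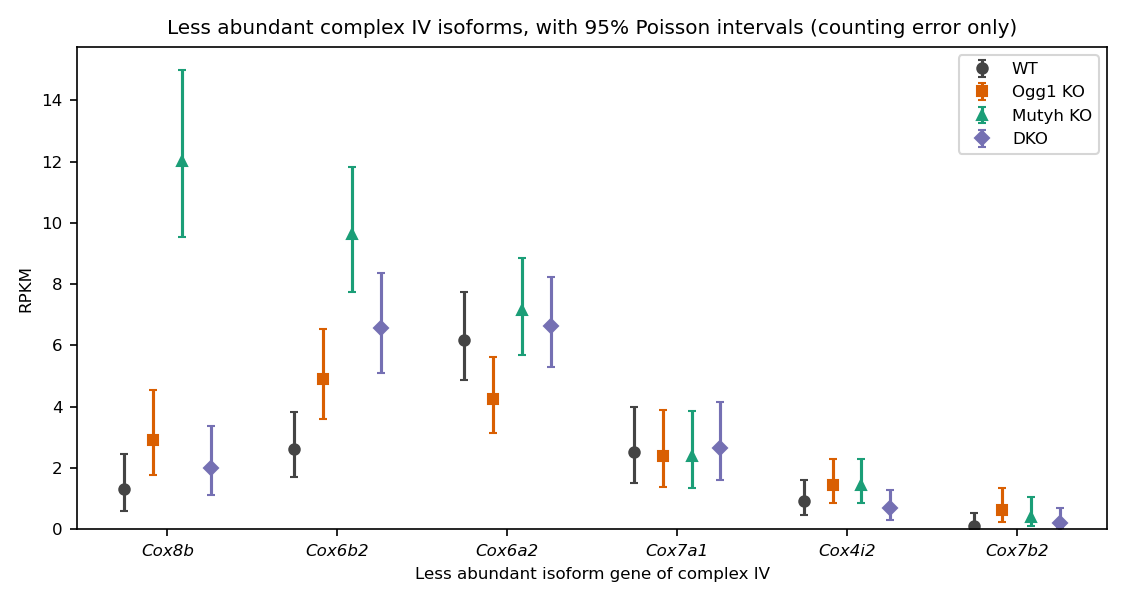
Level (RPKM, linear axis) of the 6 less abundant complex IV isoform genes in each library, with bars for the 95% Poisson interval of the count. Cox8b and Cox6b2 were highest in Mutyh KO, at 12.03 and 9.63 RPKM, whereas the intervals of Cox7a1 overlap in all 4 libraries.

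The upstream sequences of the Cox8 and Cox6b pairs are shown because Cox8b and Cox6b2 have the largest differences between libraries and Cox8a and Cox6b1 are their abundant counterparts. They are the 250 bases before the RefSeq start of each gene in GRCm38.p6, 5' to 3' on the gene's strand, and lie outside the first exon. Capitals mark matches on either strand to 4 letter strings: CCAAT (the CCAAT box), CCGGAAG (the core bound by ETS factors such as GABP), TATAAA (the TATA box) and the core of the NRF-1 site, which is GCGC, any base and TGCGC.
Cox8a (chr19:7217617-7217866, minus strand): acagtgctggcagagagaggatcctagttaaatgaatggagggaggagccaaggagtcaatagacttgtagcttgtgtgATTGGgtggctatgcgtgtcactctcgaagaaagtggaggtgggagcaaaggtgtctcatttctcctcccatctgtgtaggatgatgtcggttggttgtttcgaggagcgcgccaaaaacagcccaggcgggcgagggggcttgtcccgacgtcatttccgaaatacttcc
Cox8b (chr7:140900447-140900696, minus strand): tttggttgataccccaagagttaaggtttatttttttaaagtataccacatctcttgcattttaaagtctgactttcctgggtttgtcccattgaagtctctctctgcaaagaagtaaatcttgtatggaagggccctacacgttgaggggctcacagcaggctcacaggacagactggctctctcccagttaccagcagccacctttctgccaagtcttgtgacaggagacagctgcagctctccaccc
Cox6b1 (chr7:30626115-30626364, minus strand): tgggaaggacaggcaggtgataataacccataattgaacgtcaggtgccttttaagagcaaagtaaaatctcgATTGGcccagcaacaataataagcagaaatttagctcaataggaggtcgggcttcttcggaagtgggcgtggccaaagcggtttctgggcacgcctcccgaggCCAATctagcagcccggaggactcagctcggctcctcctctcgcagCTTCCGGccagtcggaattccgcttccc
Cox6b2 (chr7:4753095-4753344, minus strand): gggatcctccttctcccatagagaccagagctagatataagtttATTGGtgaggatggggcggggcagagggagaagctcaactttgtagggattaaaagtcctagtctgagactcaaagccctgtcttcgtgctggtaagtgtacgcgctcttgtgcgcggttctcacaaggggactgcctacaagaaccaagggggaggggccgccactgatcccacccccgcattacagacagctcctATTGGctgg
The window of Cox8a held 11 CpG dinucleotides and that of Cox8b 1, beside a median of 14 over the members' windows and 6 over all windows in the table. Cox6b1 and Cox6b2 held 14 and 8. Cox6b1 has an ETS match 28 bases before the start and 2 CCAAT matches within the printed stretch, and Cox6b2 has 2 CCAAT matches there. In Cox8b none of the 4 strings occurs before the start.

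Windows of 300 bases, reaching 50 bases past the start, were found for 38 of the 48 members. The NRF-1 string, named for a regulator of respiratory genes, occurred in those of 10 members (26.3%), against 11.1% of the 10442 compared genes with a window and 5.19% of all 27025 genes in the table. The members were Atp5c1, Atp5g2, Atp5g3, Atp5h, Atp5k, Atp5o, Cox6a1, Sdha, Sdhd and Uqcrc1. The ETS string occurred in 12 members (31.6%) against 19% of compared genes and 9.93% of all genes, and Atp5h, Atp5k, Cox6a1 and Sdhd had both. CCAAT occurred in 57.9% of members and 42.7% of compared genes, and TATAAA in 7.89% and 8.62%. These are matches of letters, not measured binding.

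Complex V genes summed to 2147 RPKM in WT and 2215, 2054 and 2074 in Ogg1 KO, Mutyh KO and DKO. Atp5b, the catalytic beta subunit, was the highest of the 48 members in each library, with 16297, 15437, 14917 and 16030 reads (479, 483, 463 and 469 RPKM), the highest 1.04 times the lowest. Atp5a1, the alpha subunit that alternates with it in the F1 head, had 12018, 10579, 11017 and 11968 reads, or 272, 254, 263 and 269 RPKM. The remaining F1 subunits ranged from Atp5d, the delta subunit, at 164 to 174 RPKM, through Atp5c1, the gamma subunit, at 73.0 to 87.4 RPKM, to Atp5e, the epsilon subunit, at 34.4 to 49.3 RPKM. Transcript levels of F1 subunits thus spanned a wider range than those of complex II or III. Of the peripheral stalk genes, Atp5h stood at 153 to 183 RPKM, Atp5o at 136 to 154, Atp5f1 at 90.8 to 95.9 and Atp5j at 82.9 to 88.9. Of the membrane subunits g and f, Atp5l stood at 115 to 124 RPKM and Atp5j2 at 88.4 to 103 RPKM. Atp5sl had 595, 647, 570 and 522 reads, with a level of at most 15.9 RPKM. Atp5s, which is not a subunit, was lowest by its mean in this group at 7.99 to 9.34 RPKM. Atp5f1 had coverage of 66.7% to 75.7% on 2314 to 2581 reads, the same limit as for Cox7b and Cox7c. The genes for subunit c of complex V shared the output almost evenly: Atp5g1 gave 33.6% in WT and 39.4%, 35.4% and 36.3% in Ogg1 KO, Mutyh KO and DKO, Atp5g2 28.4% to 31.9% and Atp5g3 32.2% to 34.9%.

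In the library labelled Ogg1 KO, 6 of the 47 members were at least 25% above WT, where 6.87% of all compared genes were, and 1 was at least 20% below, where 3.57% were. Both limits are a log2 ratio of 0.32 in size, with 1 RPKM added to each level, and mark a size of difference with no test. The higher ones were Cox6b1, Atp5k and Atp5g1, which are abundant, and Cox8b, Cox6b2 and Cox4i2, which are not. The lower one was Cox6a2. At 1.5-fold there were 2 higher (background 1.57%) and none lower (0.66%). Over all 47 the median log2 ratio was 0.02, equal to that of all genes (0.02), with 26 above 0 and 21 below, where 54.6% of all genes were above. Scaled by the median of ratios it was -0.00, so its sign was not stable. The counting interval of the fold lay above 1 for 15 members and below 1 for 7, beside 21.3% and 16.2% of all genes. Such intervals narrow as reads rise, and 40 of the 47 members average at least 20 RPKM, against 3739 of 13186 genes. These shares, here and for the other libraries below, are therefore not between genes of like level. The summed share of complex IV reads was 1.09-fold that in WT (1.07 to 1.11), that of complex III 1.002-fold (0.978 to 1.03), that of complex V 0.998-fold (0.986 to 1.01) and that of complex II 0.963-fold (0.934 to 0.993).

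Cox6b1, the common form of a subunit on the intermembrane side of the oxidase, had 1839 reads in WT and 2418, 1639 and 1757 in Ogg1 KO, Mutyh KO and DKO (201, 281, 189 and 191 RPKM). It was 1.40-fold higher in Ogg1 KO than in WT (1.32 to 1.49), while the other 3 libraries lay close together. Atp5k, subunit e at the membrane interface between ATP synthase dimers, had 453, 597, 402 and 401 reads (70.2, 98.5, 65.9 and 61.9 RPKM) and was 1.40-fold higher (1.24 to 1.59). Atp5g1 had 1454, 1740, 1353 and 1521 reads and was 1.27-fold higher (1.19 to 1.37), whereas its sister genes Atp5g2 and Atp5g3 had 1096, 1007, 982 and 1063, and 1274, 1197, 1057 and 1138 reads. Only Ogg1 KO was high for Cox6b1, Atp5k and Atp5g1. Cox6b1 and Atp5k were the 2 members at least 25% above each of the other 3 libraries in Ogg1 KO, a pattern shown by 0.857% of all genes. Across all members, Ogg1 KO was the highest library for 21 of 47, against 28.9% of all genes. Such rank counts, here and below, are not between genes of like length and level.

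The windows before Atp5k and Atp5g1 are shown as those of abundant members set apart in that library, in the same form as above. Atp5k holds the NRF-1 string 50 bases before the start, and Atp5g1 holds 5 CCAAT matches, of which a pair on opposite strands overlap.
Atp5k (chr5:108434400-108434649, minus strand): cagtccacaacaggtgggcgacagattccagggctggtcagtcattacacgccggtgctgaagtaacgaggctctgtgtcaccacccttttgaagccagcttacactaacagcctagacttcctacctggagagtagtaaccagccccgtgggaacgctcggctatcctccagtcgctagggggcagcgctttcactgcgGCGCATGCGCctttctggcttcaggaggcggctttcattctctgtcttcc
Atp5g1 (chr11:96075632-96075881, minus strand): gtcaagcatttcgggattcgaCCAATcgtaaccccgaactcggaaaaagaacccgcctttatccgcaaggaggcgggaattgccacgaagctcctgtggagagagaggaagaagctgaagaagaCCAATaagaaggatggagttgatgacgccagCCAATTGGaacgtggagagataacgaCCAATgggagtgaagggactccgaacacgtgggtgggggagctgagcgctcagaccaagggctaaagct
The windows hold 13 and 15 CpG dinucleotides.

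Further small subunits were higher in Ogg1 KO by less than 25%. Uqcrh, the acidic hinge protein of complex III, had 1298 reads against 1150 in WT (1.20-fold, 1.11 to 1.30), and Uqcrq 1092 against 1010 (1.15-fold, 1.06 to 1.255). Cox7b had 1402 against 1240 (1.20-fold, 1.11 to 1.30), Atp5e 352 against 312 (1.20-fold, 1.03 to 1.40) and Atp5h 1788 against 1668 (1.14-fold, 1.07 to 1.22). Longer genes were above WT too, such as Atp5sl (2389 bases, 1.16-fold, 1.03 to 1.30) and Cycs (3059 bases, 1.08-fold, 1.02 to 1.14). Below WT were Atp5c1, with 2257 reads against 2873 (0.836-fold, 0.791 to 0.884), Uqcrfs1, Cox7a2 (0.895-fold, 0.815 to 0.984) and Uqcrb (0.902-fold, 0.831 to 0.979). Within complexes III, IV and V some members were thus above WT and others below it in the same library.

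In this library the shortest members stood above the others. The deposited lengths of Cox6b1, Atp5k and Atp5g1 are 505, 356 and 805 bases. Of the 19 compared members of at most 600 bases, 14 were above 0 in log2 ratio with a median of 0.16. The 11 members of over 600 and up to 1000 bases had a median of -0.00, the 13 of over 1000 and up to 2000 bases one of -0.03, and the 4 longer ones one of 0.01, so there was no steady order beyond the shortest class. Over all genes the medians for the same lengths were 0.05 (246 genes, the 19 members among them), 0.05 (693 genes), 0.01 (2901 genes) and 0.02 (9346 genes). In Mutyh KO the shortest class had a median of -0.06 for members and -0.01 for all genes, and in DKO -0.06 and -0.05. What part length plays in the Ogg1 KO values was not tested.

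**Figure D3:**
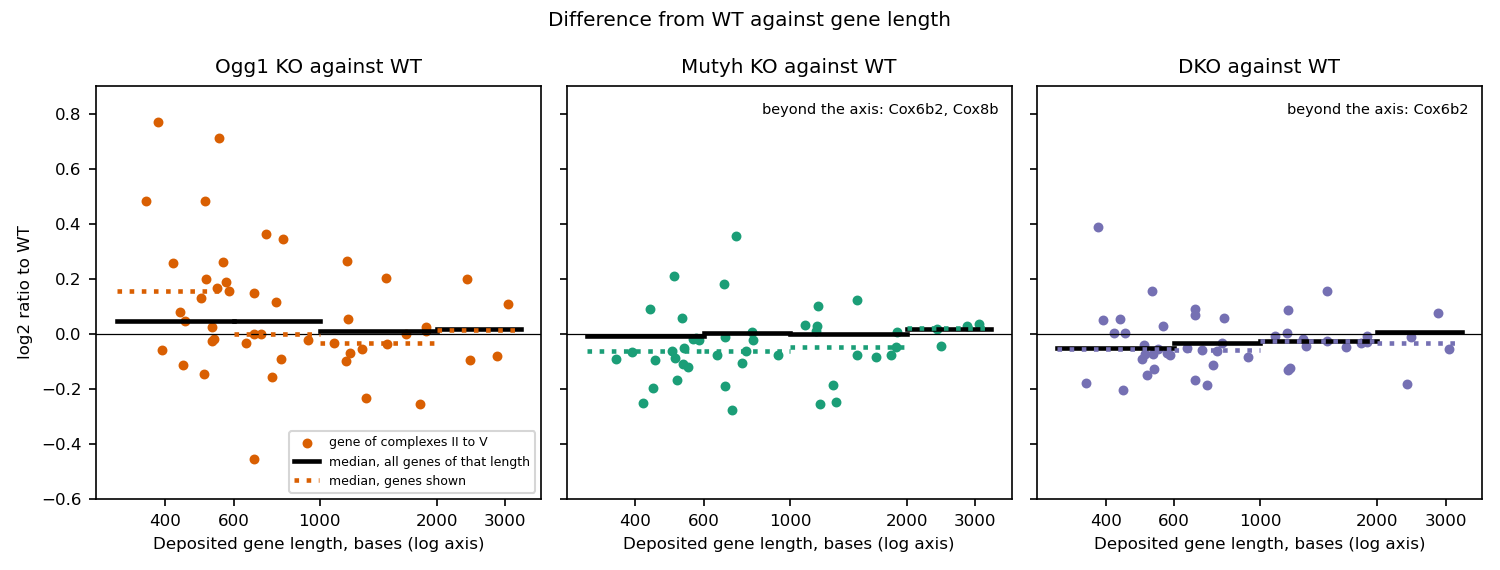
Difference from WT (log2 ratio) of each compared member against its deposited length (bases, log axis), 1 panel per knockout library; black lines are medians of all compared genes in 4 length classes and dotted lines those of the members, the last class also holding longer genes than the axis shows. In Ogg1 KO the members of at most 600 bases have a median of 0.16 against 0.05 for all genes of that length.

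In the library labelled Mutyh KO, 3 of 47 members were at least 25% above WT (background 8.24%) and none 20% below (background 1.92%). Those above were Cox8b, Cox6b2 and Cox4i2, all low-level complex IV isoforms. At 2-fold, 2 members were higher, against 0.743% of all genes. The median log2 ratio was -0.05 against 0.01 for all genes, with 17 members above 0 and 30 below, where 53.0% of all genes were above. The direction turned when each member was set against genes of like length and level: the median was then 0.01, with 24 above 0 and 23 below. The counting interval lay below 1 for 13 members (background 16.4%) and above 1 for 3 (background 19.8%). In complex V, 14 of 17 members were below 0 without that centring, with a median of -0.06. In DKO the count for complex V was also 14 of 17, with a median of -0.05. Mutyh KO was the lowest library for 20 of 47 members, against 20.3% of all genes, also without that centring.

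Cox8b had 9 reads in WT and 19, 79 and 14 in Ogg1 KO, Mutyh KO and DKO, or 1.30, 2.91, 12.03 and 2.01 RPKM. Mutyh KO was far above the others, at 9.28-fold WT (4.65 to 21.0), while the intervals of Ogg1 KO (2.25-fold, 0.969 to 5.64) and DKO (1.55-fold, 0.624 to 4.06) include 1. Its partner Cox8a was at 0.920-fold (0.879 to 0.962) in Mutyh KO. Cox6b2 had 26 reads in WT and 46, 91 and 66 in Ogg1 KO, Mutyh KO and DKO, or 2.60, 4.90, 9.63 and 6.58 RPKM. WT was the lowest of the 4, and the folds were 1.88 (1.14 to 3.17), 3.70 (2.37 to 5.96) and 2.53 (1.58 to 4.15). Cox8b and Cox6b2 were the 2 members at least 25% above each other library in Mutyh KO (0.956% of all genes) and the 2 for which WT was 20% below each other library (2.5% of all genes).

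Markers of tissues that use these isoforms (muscle, brown fat and testis) were read beside them. Markers of other cells were read too, and whether those cells use the isoforms is not known here. The 14 muscle markers summed to 44.97 RPKM in WT and 28.5, 52.9 and 52.0 in Ogg1 KO, Mutyh KO and DKO, with Actc1 (heart actin) at 128, 0, 150 and 144 reads and 1, 2, 1 and 0 markers without a read. The 4 brown fat markers summed to 6.53, 5.55, 4.77 and 5.13 RPKM, with Ucp1, the defining uncoupling protein, at 7, 0, 3 and 0 reads and 0, 2, 0 and 1 of the 4 at 0. Of the 6 testis markers, for the testis isoform Cox6b2, at most 3 had a read in any library and the sum was at most 0.575 RPKM. Markers of ependymal cells, the ciliated lining of the ventricles, summed to 25.2, 31.0, 45.5 and 24.2 RPKM, with all 6 present in each library and at least 25% higher in Mutyh KO. The 11 meningeal markers summed to 83.6, 156, 209 and 158 RPKM and the 7 blood markers to 55.6, 113, 191 and 85.4 RPKM, both highest in Mutyh KO. The meningeal, blood and choroid plexus sums, like Cox6b2, were lowest in WT. So was the oligodendrocyte sum (1277, 1458, 1495 and 1339 RPKM), which was also highest in Mutyh KO. The astrocyte sum (734, 758, 818 and 834 RPKM) and the vascular sum (99.4, 119, 112 and 126 RPKM) were lowest in WT as well. Between Ogg1 KO and DKO, Cox6b2 and the meningeal (156 and 158 RPKM), astrocyte and vascular sums were higher in DKO. The choroid plexus (2987 and 1506 RPKM), blood (113 and 85.4 RPKM) and oligodendrocyte sums were higher in Ogg1 KO. What part those cells play in Cox8b and Cox6b2 was not tested.

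Cox6a2 had 76 reads in WT and 49, 83 and 82 in Ogg1 KO, Mutyh KO and DKO, or 6.19, 4.25, 7.14 and 6.64 RPKM. Ogg1 KO was low and the others alike, and its fold to WT was 0.686 (0.469 to 0.996). It was the 1 member at least 20% below each other library in Ogg1 KO, as were 0.963% of all genes. The muscle sum was lowest in the same library, with 6 of the 9 compared markers at least 20% below WT. Liver markers were low there too: the 11 summed to 152, 124, 159 and 147 RPKM, 6 of the 8 compared were at least 20% below WT, and 6 of the 11 had no read in Ogg1 KO where none was at 0 in the other libraries. Alb (albumin) had 752, 0, 723 and 761 reads. Some of these markers, such as Actc1 and Alb, thus had no read in Ogg1 KO and were present in the other 3 libraries. The compared markers not 20% below WT there were Acta1, Pln and Ryr2 of muscle and Apoa1 and Trf of liver. Apoa1 had 165 reads in Ogg1 KO against 67 in WT, Trf 4455 against 4760 and Ryr2 5685 against 5406. Trf alone gave 113, 112, 122 and 109 RPKM of the liver sum, and Ryr2 17.7, 19.9, 21.2 and 22.0 RPKM of the muscle sum. Parvalbumin interneurons, which also express Cox6a2, had sums of 191, 201, 184 and 179 RPKM over 8 markers. Gad1 alone gave 106, 103, 101 and 92.2 RPKM of those sums. Pvalb itself had 284, 438, 268 and 298 reads, highest in Ogg1 KO. In that library 6 of the 8 were above WT, as were 54.6% of all genes compared, and Gad1 and Kcnc1 were below. The part of these tissues and cells in Cox6a2 was not tested. Cox4i2 stood at 0.911, 1.45, 1.44 and 0.680 RPKM, with intervals that include 1 in each comparison with WT.

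Among abundant members, Cox5a was furthest below WT in Mutyh KO, with 1118 reads in WT and 1051, 872 and 1077 in Ogg1 KO, Mutyh KO and DKO (0.824-fold, 0.753 to 0.901). Mutyh KO alone was low for Cox5a, which binds on the matrix side of the oxidase. Uqcr10, a small subunit of complex III, had 821, 712, 677 and 715 reads and was at 0.871-fold (0.786 to 0.966) in Mutyh KO. Atp5e had 247 reads against 312 (0.837-fold, 0.705 to 0.992), on the other side of WT from its Ogg1 KO value. Uqcrb stood above WT at 1.16-fold, with its interval above 1.

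In the library labelled DKO, 2 of 47 members were at least 25% above WT (background 5.87%) and none 20% below (background 2.55%). They were Cox6b2 and Cox8b, and the interval of Cox8b includes 1. The median log2 ratio was -0.04 against -0.00 for all genes, with 15 members above 0 and 32 below, where 49.3% of all genes were above. The middle 50% of the members lay between -0.08 and 0.02. Set against genes of like length and level, the median was 0.03, with 31 above 0 and 16 below, so the direction turned here too. The counting interval was above 1 for 4 members (background 16.2%) and below 1 for 8 (background 17.2%). Uqcr10 was the abundant member furthest below WT, at 0.867-fold (0.783 to 0.959). Atp5g3 was at 0.889-fold (0.820 to 0.964), Cox6a1 at 0.914-fold (0.870 to 0.961) and Uqcrq at 0.900-fold (0.822 to 0.985). Above WT were Cox6c, with 1984 reads against 1773 (1.11-fold, 1.04 to 1.19), and Sdha, with 5722 against 5399 (1.05-fold, 1.02 to 1.095). Without that centring, DKO was the highest library for 3 of 47 members, against 19.6% of all genes.

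**Figure D4:**
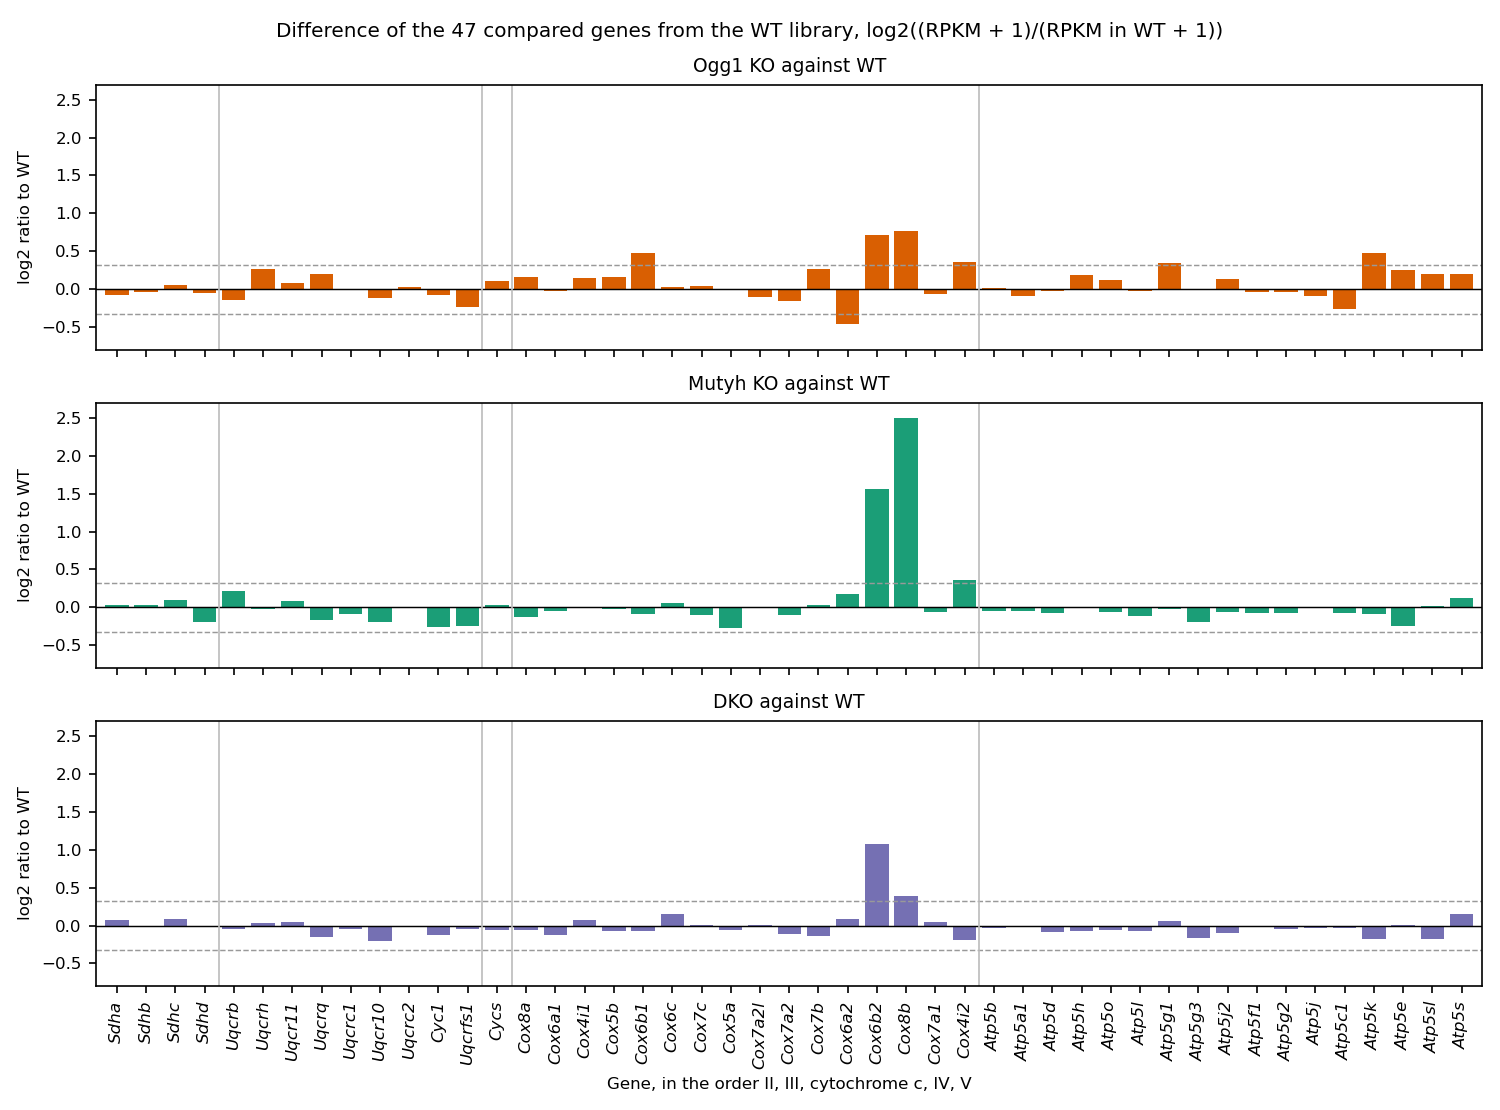
Difference of each of the 47 compared members from WT, as log2((RPKM + 1)/(RPKM in WT + 1)), 1 panel per knockout library; dashed lines mark 25% above and 20% below WT. Cox8b and Cox6b2 are the tallest bars, at 2.50 and 1.56 in Mutyh KO, and the bars of most abundant members are taller in Ogg1 KO than in DKO.

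Against the Ogg1 KO library, DKO had 7 members at least 20% lower (background 4.88%) and 2 at least 25% higher (3.66%), and Mutyh KO had 5 lower (3.06%) and 4 higher (4.8%). Atp5k was at -0.66 in log2 ratio in DKO against Ogg1 KO and Cox6b1 at -0.55. DKO against Mutyh KO gave 3 lower (4.14%) and none higher (1.22%), with Cox8b at -2.11. These comparisons share libraries with those above and add no separate evidence.

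Other genes of the pathway were read from fixed lists. Complex I was read as 45 genes (symbols in Nduf, assembly factors included). In Ogg1 KO 2 of them were at least 25% higher and 3 at least 20% lower than WT. In both Mutyh KO and DKO none was higher and 3 were lower. Over all compared genes 6.87% were higher and 3.57% lower in Ogg1 KO, 8.24% and 1.92% in Mutyh KO, and 5.87% and 2.55% in DKO. These shares also stand beside the counts of the lists that follow. The medians of the complex I genes, not centred on genes of like length and level, as for all lists here, were 0.01, -0.08 and -0.07. Ndufs5, a small complex I subunit, had 151 reads in WT and 135, 36 and 36 in Ogg1 KO, Mutyh KO and DKO, so that the Mutyh KO and DKO libraries were low, at 0.252-fold (0.170 to 0.364) and 0.237-fold (0.160 to 0.343). Also lower were Ndufa7 in Mutyh KO (0.762-fold, 0.661 to 0.877), Ndufa1 in DKO (0.640-fold, 0.531 to 0.770) and, in both, Ndufa4l2, which rests on 32 to 50 reads. In Ogg1 KO the accessory subunit Ndufa3 was 1.44-fold higher (1.32 to 1.58), and Ndufa13 (0.776-fold, 0.713 to 0.845), Ndufa2 (0.776-fold, 0.668 to 0.901) and the assembly factor Ndufaf5 (0.766-fold, 0.644 to 0.911) were lower. Ndufa4, now counted with complex IV rather than complex I, had 1569 reads in WT and 1883, 1359 and 1422 in Ogg1 KO, Mutyh KO and DKO, and was 1.28-fold higher in Ogg1 KO (1.19 to 1.37). Usmg5, a small membrane subunit of ATP synthase outside the symbol rule, had 1215, 1605, 1173 and 1268 reads and was 1.41-fold higher in Ogg1 KO (1.30 to 1.52), beside Atp5k at 1.40-fold. Tmem70, an assembly factor of ATP synthase, was at 0.762-fold there (0.673 to 0.862). Of the 6 complex V assembly, regulatory and accessory genes, these were the only 2 past either limit in Ogg1 KO, and none passed in the other libraries.

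Assembly factors of complex IV (21 compared) had medians of 0.03, -0.08 and 0.00 in Ogg1 KO, Mutyh KO and DKO, and 1 passed a limit: Coa4, lower in Ogg1 KO on 32 reads against 47. For complex II, Sdhaf2, which helps insert flavin into Sdha, was 1.32-fold higher in Ogg1 KO (1.17 to 1.48) and Acn9 was at 0.729-fold (0.467 to 1.13) on 37 reads against 54. None of the 4 complex III factors passed in any library. Of the 14 compared nuclear regulators of respiratory genes, Tfb1m, a mitochondrial ribosomal RNA methyltransferase, had 50 reads in WT and 84, 51 and 71 in Ogg1 KO, Mutyh KO and DKO, and was over 25% above WT in Ogg1 KO (1.79-fold, 1.245 to 2.59) and in DKO (1.41-fold, 0.971 to 2.07). Ppargc1b, a coactivator of mitochondrial biogenesis, was at 0.741-fold in Ogg1 KO (0.637 to 0.863). No citric acid cycle gene (15 compared) and none of the 12 genes for mitochondrial mass and the outer membrane passed either limit in any comparison with WT. The latter had medians of 0.08, -0.11 and -0.08, and the members of complexes II to V had medians of 0.02, -0.05 and -0.04.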

How the data were processed

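Hippocampal RNA of 4 mouse genotypes was sequenced, with 1 library each, per the labels. The authors deposited a count of unique reads per gene, the gene length in bases and RPKM, per the file headers. Coverage, a percent of gene length, was also deposited, its meaning read from its name in the headers. The build was mm9, per the submitters' processing notes. Aligner, counting program and strand are not given in the sources used here. Each total equalled the sum of listed reads. Unlisted genes were taken as 0, and rows with a gene ID but no symbol (0.0179% to 0.0195% of reads) stayed in the totals.

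Genes with a mean of at least 1 RPKM were compared as log2((RPKM + 1)/(RPKM + 1)), which understates differences of low genes. Folds are ratios of reads per library total with exact conditional 95% intervals, and levels have exact Poisson intervals. Counting with unique reads can split or lose reads of genes with near copies. With 1 library per genotype no test was possible, so values stand side by side. Members named were the isoform genes, catalytic subunits, the highest and lowest per complex, the 4 largest differences per comparison and those 25% above or 20% below WT; other members named with an interval were chosen after their values were seen. Members and lists were chosen with earlier results of these data known. The calculation was tested on simulated data. Alternatives were the pseudocount, the filter, 2 scalings, centring on genes of like length and level, and structural subunits only. Promoter sequences are RefSeq's (GRCm38.p6), matched by gene ID, and no coordinates were converted. Python 3.11.15, pandas 2.3.3 and SciPy 1.17.1 were used.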

Additional observations from a re-analysis of the deposited data

Results flagged for a closer look

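The difference that goes with losing 1 glycosylase was in opposite directions, by at least 25% above and 20% below, between backgrounds for 3 members, all low-level isoforms of complex IV. Each background is a single library pair, so the difference between backgrounds was not tested. For loss of Ogg1, the log2 ratio of Cox8b was 0.77 for Ogg1 KO against WT and -2.11 for DKO against Mutyh KO, that of Cox6b2 was 0.71 and -0.49, and that of Cox4i2 was 0.36 and -0.54. For loss of Mutyh, Cox8b was at 2.5 for Mutyh KO against WT and at -0.38 for DKO against Ogg1 KO, and Cox4i2 at 0.35 and -0.55. These pairs rest on 9 to 79 reads for Cox8b, 26 to 91 for Cox6b2 and 9 to 18 for Cox4i2. Only for Cox6b2 did both counting intervals exclude 1, at 1.14 to 3.17 and 0.490 to 0.948. For Cox8b the intervals of Ogg1 KO against WT (0.969 to 5.64) and DKO against Ogg1 KO (0.320 to 1.45) include 1. All those of Cox4i2 include 1. The entries of Cox8b for the 2 losses use the same 4 libraries, as do those of Cox4i2, so they are not separate.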

How the results depend on the processing

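Of 48 alternative values for the medians, summed shares and counts, 4 moved past the limits set, all of them summed shares. The limits were the counting interval for a summed share, 1.5 times for a count and, for a median, the typical counting error of 1 member. That error is about 0.12 in log2 ratio, larger than the medians, so a change of sign did not count as a move. Without the filter the summed share is the same by construction, as it already used all 48 members. The small medians nevertheless changed sign: centred on genes of like length and level, that of Mutyh KO went from -0.05 to 0.01 and that of DKO from -0.04 to 0.03, and with median-of-ratios scaling that of Ogg1 KO went from 0.02 to -0.00. The sign of the member median thus held under every alternative run in none of the 3 comparisons. With median-of-ratios scaling the summed share was 1.0003-fold WT in Ogg1 KO and 0.946-fold in Mutyh KO. With ribosomal RNA, choroid plexus, globin and Xist reads left out of the totals it was 0.981-fold in Mutyh KO and 0.989-fold in DKO. No value past the limit of 25% above or 20% below WT changed direction. Of 72 alternative values of such members, 3 were below that limit, a log2 ratio of 0.3219: Atp5g1 in Ogg1 KO at 0.3202 by median-of-ratios scaling and 0.31 centred on genes of like length and level, and Cox4i2 in Mutyh KO at 0.30 centred. The filter and the choice of structural subunits leave these members' values unchanged by construction, so those alternatives could not move or turn them. Median-of-ratios scaling left 22, 10 and 12 of 47 members above 0 in Ogg1 KO, Mutyh KO and DKO. It moved the median of all genes by at most 0.03 in size. No paired analysis was possible because each genotype has 1 library. Depth limits the isoforms with under 100 reads, above all Cox4i2, Cox7a1 and Cox7b2.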
